A study of Mus musculus with 12 samples.

Results

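The 8 genes described here act in the making of cholesterol or control it. The rule names them by symbol and uses no measured value, although it was written with earlier results of these data known: *Srebf2*, *Hmgcs1*, *Idi1*, *Fdft1*, *Sqle*, *Lss*, *Cyp51* and *Dhcr7*. All 8 were found among the 49315 genes of the count table, and all 8 were among the 20290 genes with enough reads to be tested. Between mice transplanted with WT and with *Tet2*-KO bone marrow cells, transcript levels of these genes overlapped at 14 d post-stroke, none of the 8 passed the test, and their differences ranged from a log2 fold change of -0.09 for *Dhcr7* to 0.14 for *Srebf2*.

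Cholesterol is made from acetyl-CoA along the mevalonate pathway to squalene, which is closed into lanosterol and trimmed step by step to cholesterol. The transcription factor SREBP2, the product of *Srebf2*, is held in the endoplasmic reticulum while sterols are plentiful and is cut and released to switch on the genes of the pathway when sterols run low. The brain makes its own cholesterol because lipoproteins of the blood do not cross the blood-brain barrier, with oligodendrocytes using it for myelin and astrocytes passing it to neurons on apolipoprotein E.

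The study asked how clonal hematopoiesis driven by loss of *Tet2*, a DNA demethylating enzyme, bears on outcome after ischemic stroke, and these 12 libraries are bulk RNA-sequencing of brain, 6 from each group. Recipients were male CD45.1 Pep Boy mice (B6.SJL-Ptprca Pepcb/BoyJ) on a C57Bl6 background, 8 to 12 weeks old, irradiated with the head shielded. In both groups 90% of the transplanted cells were CD45.1 *Tet2*+/+ marrow. The remaining 10% were CD45.2 marrow, *Tet2*-/- in the *Tet2*-KO group and *Tet2*+/+ from littermates in the WT group. After 8 to 10 weeks the right middle cerebral artery was occluded for 30 min, and brain was taken on day 14 after the stroke. The groups follow the titles and genotype entries of the labels, because the treatment entry names control cells in the *Tet2*-KO libraries too. Recipient cells and most of the marrow kept *Tet2*, so its level in brain does not check the labels.

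Total counts ran from 12000261 to 15340787 per library in the WT group and from 12625047 to 21049763 in the *Tet2*-KO group. Levels are given as CPM (each count divided by the scaled size of its library) after TMM scaling. Each brain was sequenced in bulk, so fewer cells of a type and less RNA per cell cannot be told apart. No library repeated another: between mice of a group, gene counts gave chi-square values of 1.91 to 24.5 per degree of freedom, where sampling alone gives about 1. WT replicate 2 had a summed level of 6 phagocyte genes (*Spp1*, *Gpnmb*, *Cd68*, *Lgals3*, *Lyz2* and *Trem2*) of 2811 CPM against 1087 to 1714 CPM in the other WT mice. *Tet2*-KO replicate 5 had 1587 CPM against 78.8 to 631 CPM in the other *Tet2*-KO mice. Both libraries stood apart from their groups in this way, and calls that change when they are left out are given beside the lists below.

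Promoters of 3 of these genes are printed because they hold different numbers of the elements described below. Whether these letters bear on the levels of the genes was not tested. RefSeq (GRCm38.p6) gave a 300-base window around the start, most of it upstream, for 6 of the 8 genes, not for *Sqle* or *Fdft1*. Capitals mark the letters TCACNCCAC, a form of the sterol regulatory element bound by SREBP, and CCAAT, the NF-Y element often found near it, on either strand. The windows are *Hmgcs1* at chr13:119690101-119690400, *Idi1* at chr13:8885356-8885655 and *Srebf2* at chr15:82147019-82147318, all on the plus strand.
Hmgcs1: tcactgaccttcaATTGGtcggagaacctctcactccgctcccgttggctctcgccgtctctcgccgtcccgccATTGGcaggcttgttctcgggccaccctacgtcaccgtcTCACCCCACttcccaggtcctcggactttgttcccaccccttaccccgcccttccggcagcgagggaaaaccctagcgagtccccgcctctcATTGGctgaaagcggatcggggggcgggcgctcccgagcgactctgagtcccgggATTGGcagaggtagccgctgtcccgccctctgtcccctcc
Idi1: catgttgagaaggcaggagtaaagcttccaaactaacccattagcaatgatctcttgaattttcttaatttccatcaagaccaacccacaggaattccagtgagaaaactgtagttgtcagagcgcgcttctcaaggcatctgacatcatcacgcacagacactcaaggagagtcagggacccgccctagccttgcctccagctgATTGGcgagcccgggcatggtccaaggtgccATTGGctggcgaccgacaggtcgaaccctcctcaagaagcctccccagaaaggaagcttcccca
Srebf2: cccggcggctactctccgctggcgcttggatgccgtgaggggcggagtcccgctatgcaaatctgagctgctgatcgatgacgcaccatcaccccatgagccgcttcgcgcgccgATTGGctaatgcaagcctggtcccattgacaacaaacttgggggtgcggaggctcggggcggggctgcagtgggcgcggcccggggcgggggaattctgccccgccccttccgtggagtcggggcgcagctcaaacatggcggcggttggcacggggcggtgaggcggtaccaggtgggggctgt

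TCACNCCAC stood in the *Hmgcs1* window, at position -137 from the start, and in none of the other 5 genes with a window, while it occurs in 1.24% of the 32851 windows of the genome. CCAAT or its reverse complement stood in at least 1 window of all 6 genes. Over the genome it stood in 37.4% of windows. That share is per window and not per gene, as the 32851 windows belong to 27025 genes. *Hmgcs1* held 4 copies and *Idi1* 2, while *Srebf2*, *Lss* and *Cyp51* held 1 each. *Dhcr7* has 3 RefSeq windows, of which 1 held 2 copies. A match is a description of letters, and no binding was measured.

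*Srebf2* (ENSMUSG00000022463, chr15:82147181-82205379 in GRCm38, plus strand) encodes SREBP2, which switches on the enzymes of the pathway. Its level was 155 CPM in the lowest WT mouse, 178 CPM at the median and 185 CPM in the highest, and 168, 190.2 and 230.4 CPM in the *Tet2*-KO mice. 3 of the 6 *Tet2*-KO mice stood above every WT mouse, and the other 3 lay within the WT range. The log2 fold change (*Tet2*-KO over WT) was 0.14 ± 0.07 (SE), with an edgeR adjusted p of 0.284 and a 95% confidence interval of -0.022 to 0.29, which is a change of -1.52% to 22.7%. In this edgeR fit its unadjusted p (0.0865) was the smallest of the 8 genes, close to that of *Dhcr7* (0.0899). In the permutation tests given below, *Dhcr7* had the smallest p.

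*Hmgcs1* (ENSMUSG00000093930, chr13:119690379-119708260, plus strand) encodes HMG-CoA synthase, an early enzyme of the mevalonate pathway. It ranged from 95.4 to 139.9 CPM in WT mice, with a median of 120.2 CPM, and from 96.4 to 161 CPM in *Tet2*-KO mice, with a median of 121 CPM. Both medians lay close together, and 4 of the 6 *Tet2*-KO mice lay within the WT range. The log2 fold change was 0.06 ± 0.12, with an adjusted p of 0.8004 and a 95% interval from a change of -12.5% to 24.5%. The sign rested on 1 mouse: without *Tet2*-KO replicate 1 the value was -0.018.

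*Idi1* (ENSMUSG00000058258, chr13:8885501-8892451, plus strand) encodes the isomerase that makes dimethylallyl diphosphate, the starter unit of isoprenoid chains. It was the lowest of the 8, at 75 to 154 reads per library. WT mice ranged from 5.38 to 8.83 CPM with a median of 7.50 CPM, and *Tet2*-KO mice from 5.86 to 9.54 CPM with a median of 8.09 CPM. 2 *Tet2*-KO mice were above the WT range and none below it. Its log2 fold change was 0.10 ± 0.14 (adjusted p = 0.693, 95% interval -12.1% to 31.4%), the widest interval of the 8.

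The squalene steps came next. *Fdft1* (ENSMUSG00000021273, chr14:63145150-63179578, minus strand) encodes squalene synthase, the step that commits the pathway to sterols. Its range was 35.2 to 48.6 CPM in WT mice and 39.0 to 53.5 CPM in *Tet2*-KO mice, and the medians were 44.8 and 44.9 CPM. The groups overlapped over most of their range. Its log2 fold change was 0.07 ± 0.09 (adjusted p = 0.658, 95% interval -7.68% to 20.1%). Of its exon bases, 18.3% lie under exons of *Ctsb* on the opposite strand, and the strand setting of the counting is not given in the sources used here. *Ctsb*, a lysosomal protease, averaged 1218 CPM in WT and 702 CPM in *Tet2*-KO mice (log2 fold change -0.80, adjusted p = 0.133), and its part in the *Fdft1* counts was not tested. Opposite-strand genes also share 12.1% of the exon bases of *Hmgcs1* (*Gm48342*), 9.22% of those of *Idi1* (*Gm48574*), 3.76% of *Cyp51* (*Akap9*) and 3.53% of *Lss* (*4930483K19Rik*), and none of *Sqle*, *Dhcr7* or *Srebf2*.

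*Sqle* (ENSMUSG00000022351, chr15:59315077-59331192, plus strand) encodes squalene epoxidase, an oxygen-requiring control point of the pathway. WT mice ranged from 36.4 to 49.95 CPM around a median of 43.3 CPM, and *Tet2*-KO mice from 38.8 to 55.1 CPM around 44.5 CPM. 1 *Tet2*-KO mouse stood above the WT range. The log2 fold change was 0.09 ± 0.09 (adjusted p = 0.575, 95% interval -6.43% to 20.9%).

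*Lss* (ENSMUSG00000033105, chr10:76531588-76557138, plus strand) encodes lanosterol synthase, which closes the sterol rings. WT mice ranged from 32.5 to 42.3 CPM around a median of 35.8 CPM, and *Tet2*-KO mice from 33.5 to 52.1 CPM around 37.2 CPM. 5 of the 6 *Tet2*-KO mice lay within the WT range, and *Tet2*-KO replicate 3 stood well above all others. Between the groups, its log2 fold change was 0.10 ± 0.10 (adjusted p = 0.602, 95% interval -7.72% to 23.8%). Without *Tet2*-KO replicate 3 it was -0.0048.

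Past lanosterol, *Cyp51* (ENSMUSG00000001467, chr5:4081145-4104746, minus strand) encodes the P450 enzyme that removes a methyl group from the sterol nucleus. It ranged from 39.9 to 49.7 CPM in WT mice, with a median of 45.3 CPM, and from 37.8 to 54.8 CPM in *Tet2*-KO mice, with a median of 42.7 CPM. *Tet2*-KO mice held both the lowest and the highest value. Its log2 fold change was -0.03 ± 0.08 (adjusted p = 0.881, 95% interval -12.7% to 10.5%), and it was 0.0077 under upper quartile scaling.

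*Dhcr7* (ENSMUSG00000058454, chr7:143823145-143848410, plus strand) encodes the reductase that makes cholesterol from 7-dehydrocholesterol, which is also the precursor of vitamin D. It varied least of the 8 in WT mice, from 37.0 to 39.2 CPM with a coefficient of variation of 2.16%. Counting alone gives up to 4.69% for this gene, so the narrow WT range does not show a steady level. The comparisons below use these same WT values. *Tet2*-KO mice ranged from 32.9 to 39.3 CPM with a median of 35.6 CPM, against a WT median of 37.9 CPM. All WT mice lay above 5 of the 6 *Tet2*-KO mice and below the remaining one, *Tet2*-KO replicate 1. Between the groups, its log2 fold change was -0.09 ± 0.05 (adjusted p = 0.289, 95% interval -12.7% to 1.097%). The exact two-sided permutation test of this gene alone gave p = 0.0390, where 0.00216 is the smallest p it can give. It was 1 of 8 such tests, the other 7 gave p from 0.152 to 0.710, and none is adjusted for their number.

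**Figure D1:**
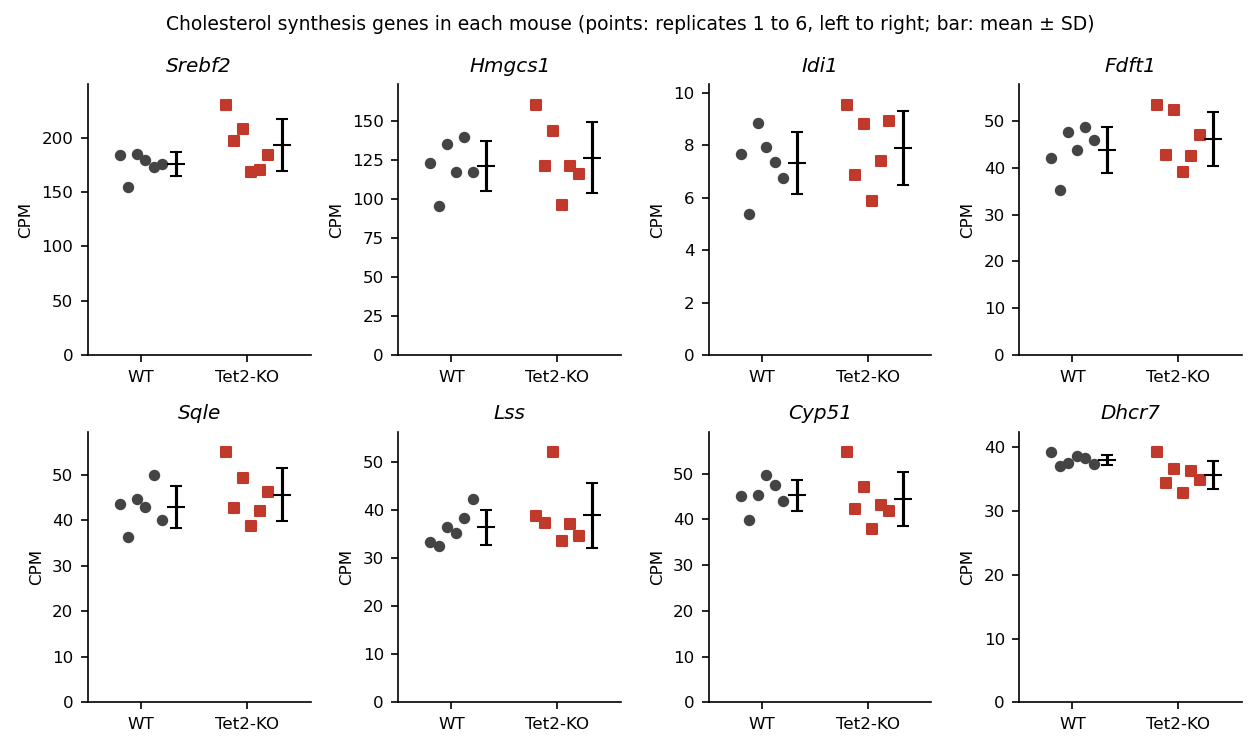
Level of the 8 genes in each mouse, in CPM on an axis from 0, with 1 point per mouse (circles WT, squares *Tet2*-KO, replicates 1 to 6 from left to right) and the mean ± SD of the 6 mice beside them. The groups overlap in every panel, and *Tet2*-KO replicate 1 is the highest mouse in 7 of the 8.

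None of the 8 genes had an adjusted p below 0.05, a threshold passed by 0.0246% of all genes tested, 5 genes that were all lower in the *Tet2*-KO group. DESeq2 called 4.25% and limma-voom 9.18% of the genes they tested, and each called 0 of the 8. At an unadjusted p below 0.05, the share was 23.1% of all genes (12.2% lower and 10.8% higher in *Tet2*-KO; 10.5% and 14.8% under upper quartile scaling) and 0 of the 8. The groups did not overlap for 1.09% of all genes and for 0 of the 8. The median log2 fold change was 0.08 over the 8 genes and 0.01 over all genes tested, and 6 of the 8 values were above 0. The 8 confidence intervals all hold 0. Their lowest bound is -12.7% (*Cyp51* and *Dhcr7*) and their highest 31.4% (*Idi1*), and the interval of each gene, given above, is narrower than these bounds. With WT replicate 2 and *Tet2*-KO replicate 5 left out, 1554 genes passed the threshold and still 0 of the 8, with a median of 0.04 and a smallest adjusted p of 0.253.

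The rest of the pathway was measured too. All 14 further synthesis enzymes on the list were tested and none passed the threshold. Their median log2 fold change was 0.03. 1 of the 14 had an unadjusted p below 0.05: *Lbr*, a sterol reductase that is also the lamin B receptor of the nuclear envelope, averaged 17.7 CPM in WT and 15.3 CPM in *Tet2*-KO mice (log2 fold change -0.21 ± 0.07, adjusted p = 0.127). *Fdps*, which makes farnesyl diphosphate, averaged 7.91 CPM in WT and 8.11 CPM in *Tet2*-KO mice (0.03 ± 0.14, adjusted p = 0.917). *Pmvk*, a mevalonate pathway kinase, and *Ebp*, a sterol isomerase, had log2 fold changes of -0.17 (adjusted p = 0.487) and -0.11 (adjusted p = 0.566).

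**Figure D2:**
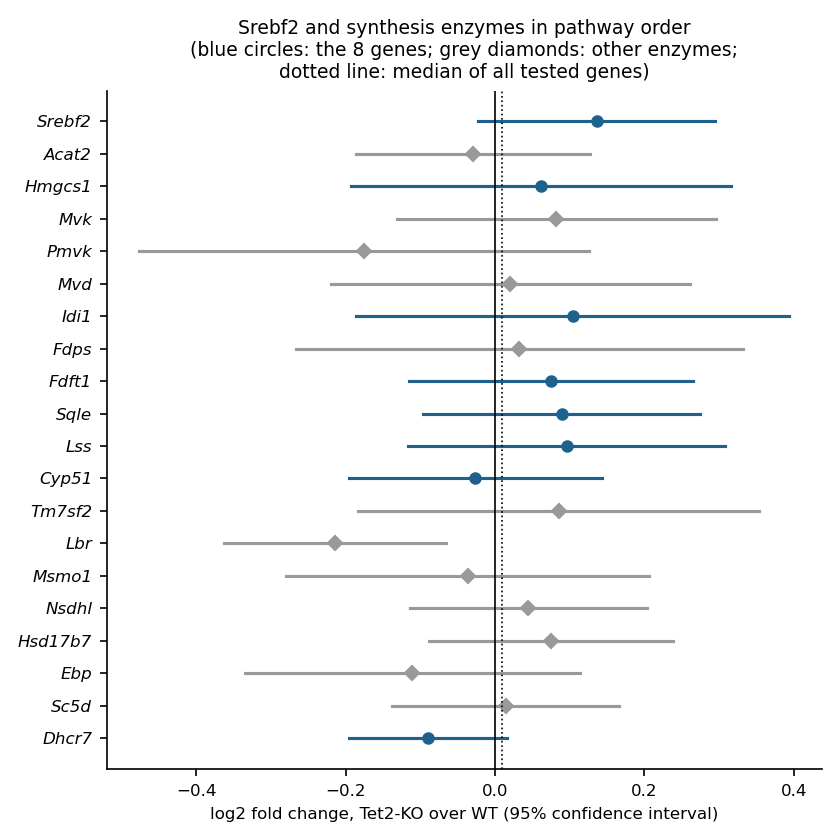
Log2 fold change (*Tet2*-KO over WT, points) with its 95% confidence interval (lines) for *Srebf2* and synthesis enzymes, ordered along the pathway from top to bottom. Blue circles are the 8 genes and grey diamonds 12 other enzymes, and of the intervals drawn that of *Lbr* alone leaves out 0.

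Levels between genes were compared as CPM per kilobase of union exon length, averaged over the 12 mice. On this scale *Hmgcs1* (27.0) and *Srebf2* (25.6) led, with overlapping ranges and *Hmgcs1* above *Srebf2* in 8 of 12 mice. *Fdft1* (10.7) and *Cyp51* (10.2) followed, also overlapping, with *Fdft1* above in 9 of 12 mice. *Cyp51* was above *Sqle* (7.99) and *Sqle* above *Dhcr7* (6.33) in 12 of 12 mice, although the ranges over mice overlapped. *Lss* (3.49) and *Idi1* (2.17) stood below them, and their ranges did not overlap those of their neighbors in the order. The order depends on the length used. Per kilobase of the longest coding transcript, *Srebf2* (36.3) and *Hmgcs1* (35.8) led, followed by *Sqle* (16.1), *Dhcr7* (13.1), *Fdft1* (12.2), *Cyp51* (11.4), *Lss* (8.06) and *Idi1* (2.51).

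Although the groups did not separate, the 8 genes varied together between mice. Each gene was centered within its group on the log2 CPM scale, and all 28 pairs of genes had a positive Pearson correlation over the 12 mice, with a median of 0.79. *Hmgcs1* and *Sqle* were the closest pair (0.93), and *Lss* and *Dhcr7* the loosest (0.33). The median was 0.70 over the 6 WT mice alone, where 27 of 28 pairs were positive, and 0.88 over the 6 *Tet2*-KO mice alone. These correlations describe 12 libraries, whose genes share each library's cell makeup, scaling and depth. *Hmgcs1* followed the mean of the other 7 most closely (r = 0.96) and *Lss* least (r = 0.51).

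A few mice lay farthest out. WT replicate 2 was the lowest WT mouse for all 8 genes, and *Tet2*-KO replicate 4 was the lowest *Tet2*-KO mouse for all 8. *Tet2*-KO replicate 1 was the highest of the 12 mice for 7 of the 8 genes, and *Tet2*-KO replicate 3 was the highest for *Lss*. Averaged over the 8 genes, the log2 deviation from each gene's own mean was -0.26 in WT replicate 2, -0.22 in *Tet2*-KO replicate 4, 0.20 in *Tet2*-KO replicate 3 and 0.26 in *Tet2*-KO replicate 1. The other 8 mice lay between -0.05 and 0.07. Without these 4 mice, which were chosen on the same values after they were seen, the median correlation over the 28 pairs was 0.039 and 15 pairs were positive. Without *Tet2*-KO replicates 1 and 4 and WT replicate 2 it was 0.41, and without the *Tet2*-KO pair alone 0.67, with all 28 pairs positive in both cases. Leaving out the most extreme values lowers a correlation by construction. How far the co-variation described above rests on these 4 mice therefore cannot be read from these values. The summed level of the 8 genes ran from 437 to 543 CPM in WT mice and from 452 to 642 CPM in *Tet2*-KO mice.

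**Figure D3:**
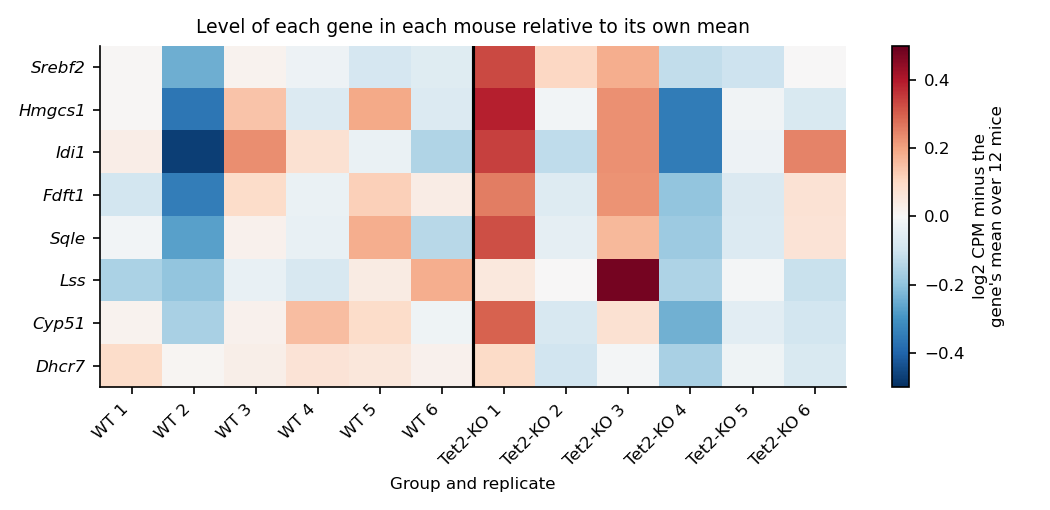
Log2 CPM of each gene (rows) in each mouse (columns, WT left of the line, *Tet2*-KO right) minus the gene's mean over the 12 mice, on a color scale from -0.5 (blue) to 0.5 (red). WT replicate 2 and *Tet2*-KO replicate 4 are low and *Tet2*-KO replicates 1 and 3 high across most rows.

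The genes whose pattern over the 12 mice was most like the mean of the 8 were picked from 13484 other tested genes with a mean of at least 5 CPM, by the Pearson correlation of group-centered log2 CPM. They were *Ttpal* (0.96), *Pknox2* (0.95), *Insig1* (0.95), *Miat* (0.94), *Ssx2ip* (0.94), *Map3k5* (0.94), *Tsc22d1* (0.94), *Tctn3* (0.93), *Atp6ap2* (0.92) and *Zmynd11* (0.92). *Insig1*, which retains SREBP in the endoplasmic reticulum and is itself a target of SREBP2, had rank 3. A correlation above 0.8 was found for 485 genes, which is 3.60% of those compared, and for 6 of the 14 other synthesis enzymes. The enzymes *Lbr* and *Ebp* both had r = -0.26. Such a value was not particular to synthesis genes. Among the neuron markers it was reached by *Rbfox3* (0.90), *Nefl* (0.86), *Slc17a7* (0.84), *Syt1* (0.83) and *Snap25* (0.83). *Stmn2* (0.75), *Gad1* (0.58) and *Gad2* (-0.02) lay below it. On this group-centered mean, *Tet2*-KO replicates 4 and 1 lay farthest from the median (1.57 and 1.49 SD units), followed by WT replicate 2 (1.38). Without the first pair the correlation of *Insig1* was 0.92, without all 3 it was 0.90, and without *Tet2*-KO replicate 3 as well it was 0.67 over 8 mice.

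Most cell type markers moved with or against the 8 genes across mice, and their part in the pattern was not tested. Within groups, the mean level of 8 neuron markers (*Snap25*, *Syt1*, *Rbfox3*, *Stmn2*, *Slc17a7*, *Gad1*, *Gad2* and *Nefl*) correlated with that of the 8 genes at r = 0.81. The 14 other synthesis enzymes did so at r = 0.93. The correlation was -0.83 for 8 oligodendrocyte markers such as *Mobp*, -0.82 for 6 astrocyte markers, -0.92 for 6 microglia markers such as *P2ry12* and *Csf1r*, and -0.78 for the 6 phagocyte genes. It was -0.85 for oligodendrocyte precursors and -0.90 for newly formed oligodendrocytes, and -0.60 to -0.72 for endothelial, fibroblast and choroid plexus markers. These are values of list means, and not every marker followed its list. Taken singly, the astrocyte marker *Slc1a2* had r = 0.50 and the endothelial marker *Flt1* 0.41. The oligodendrocyte marker *Opalin* (-0.05) and the neuron marker *Gad2* (-0.02) lay near 0. The mouse with the lowest sum of the 8 genes, WT replicate 2, had the lowest sum of neuron markers (2878 CPM, others 3751 to 5100 CPM) and the highest sum of microglia markers (1378 CPM, others 365 to 992 CPM). *Tet2*-KO replicate 1 stood at the other end of both. Without *Tet2*-KO replicates 1 and 4 the correlations of the lists were 0.76 for neurons, -0.78 for oligodendrocytes, -0.83 for microglia and -0.60 for the phagocyte genes. The nearest to 0 among the marker lists was -0.39 for choroid plexus. No marker was at 0 in any library.

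**Figure D4:**
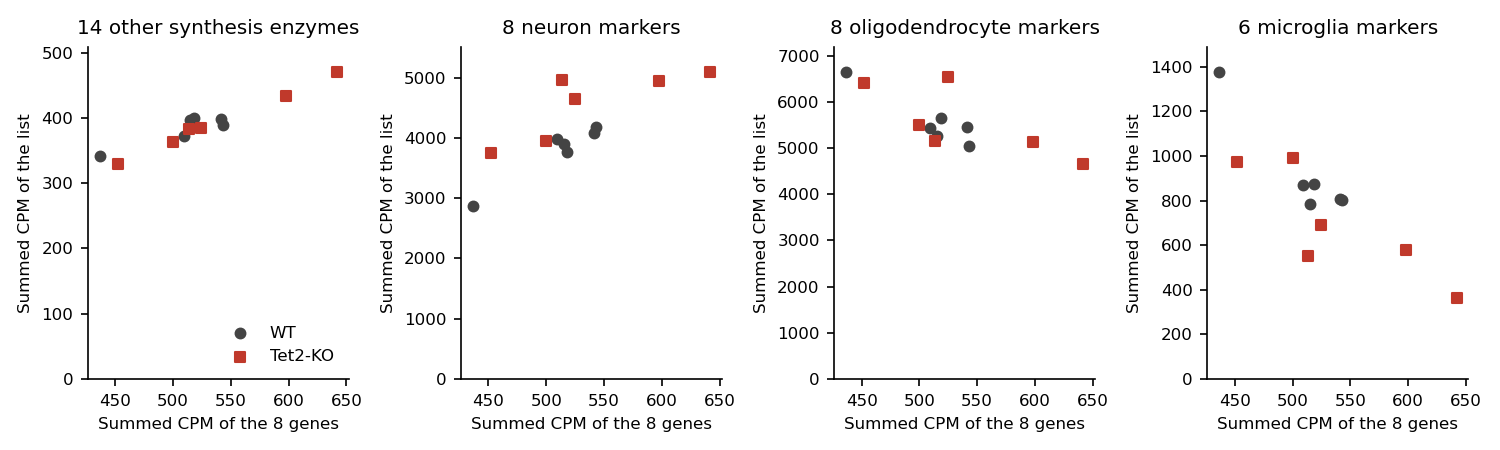
Summed CPM of 4 gene lists (vertical axes, from 0) against the summed CPM of the 8 genes (horizontal axes, 437 to 642 CPM) in the 12 mice (circles WT, squares *Tet2*-KO). The other synthesis enzymes and the neuron markers climb from left to right, and the oligodendrocyte and microglia markers descend.

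The same marker lists differed between the groups to unlike extents. Over all genes tested, 12.2% were lower and 10.8% higher in *Tet2*-KO mice at an unadjusted edgeR p below 0.05. The neuron markers had a median log2 fold change of 0.24, with 7 of 8 at an unadjusted p below 0.05 and higher in *Tet2*-KO mice. The oligodendrocyte markers had a median of -0.0066 with 0 of 8, and the summed level was 5040 to 6655 CPM in WT and 4664 to 6542 CPM in *Tet2*-KO mice. The microglia markers had a median of -0.25 with 0 of 6. The phagocyte genes had a median of -1.72 with 4 of 6 lower, and their sum was 1087 to 2811 CPM in WT and 78.8 to 1587 CPM in *Tet2*-KO mice. All 4 fibroblast markers had an unadjusted p below 0.05 and were lower in *Tet2*-KO mice, with a median of -1.36. So were 2 of 4 choroid plexus markers (median -0.27), 2 of 4 markers of oligodendrocyte precursors (median -0.15) and 1 of 4 endothelial markers (median -0.09). Of the astrocyte markers 1 of 6 was higher (median -0.12), and of the markers of newly formed oligodendrocytes 0 of 4 had such a p (median -0.09).

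With all 12 mice edgeR called 0 of the genes in these 10 marker lists past the adjusted threshold, while other settings called some. Without *Tet2*-KO replicate 5 it called 4 of 6 phagocyte genes, 4 of 4 fibroblast markers and 1 of 4 precursor markers lower and 2 of 8 neuron markers higher, and the phagocyte median was -2.54. Without that mouse and WT replicate 2 the calls were 3, 2, 1 and 2, and the phagocyte median was -2.29. Limma-voom called 4, 4, 1 and 2, with 1 endothelial and 2 choroid plexus markers as well. DESeq2 called 1 fibroblast, 1 endothelial and 1 choroid plexus marker. Over all genes tested, edgeR called 5 of 20290 with all 12 mice and 2257 of 20525 without *Tet2*-KO replicate 5. Without both mice it called 1554 of 20464. Limma-voom called 9.18% of all genes it tested and DESeq2 4.25%. Leaving out WT replicate 2 alone lowered some counts at an unadjusted edgeR p below 0.05. In that fit 4 of 8 neuron markers were higher, and 2 of 6 phagocyte genes and 2 of 4 fibroblast markers were lower. Over all genes tested, 15.3% had such a p in that fit, against 23.1% with all 12 mice. None of these fits called any of the 8 synthesis genes past the adjusted threshold.

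The regulators and other targets of the SREBP proteins were also measured. Of 7 tested genes of SREBP retention, cleavage and turnover, a list that also holds *Srebf1*, 0 had an unadjusted p below 0.05, and their median was -0.02. *Insig1* averaged 54.2 CPM in WT and 53.3 CPM in *Tet2*-KO mice (log2 fold change -0.02 ± 0.09, adjusted p = 0.904). *Scap*, the escort that senses cholesterol, averaged 93.6 and 97.3 CPM (0.06 ± 0.05, adjusted p = 0.574). The proteases *Mbtps1* and *Mbtps2* had values of -0.04 (adjusted p = 0.653) and 0.10 (adjusted p = 0.341). *Srebf1*, the gene of the fatty acid regulator SREBP1, averaged 129 and 107 CPM (-0.27 ± 0.13, adjusted p = 0.237), the opposite sign to *Srebf2*.

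Of 4 further SREBP2 targets, 1 had an unadjusted edgeR p below 0.05 and was higher in *Tet2*-KO mice, as were 10.8% of all genes tested. Of these 4, 0 passed the adjusted threshold, and 1 did without *Tet2*-KO replicate 5. Among them *Stard4*, a sterol carrier, had a log2 fold change of -0.04 (adjusted p = 0.847) and *Tmem97*, a sterol-regulated membrane protein, one of 0.17 (adjusted p = 0.400). Of 10 fatty acid synthesis genes, targets of SREBP1, 1 had an unadjusted p below 0.05: *Scd1*, a desaturase, at -0.23 ± 0.07 (adjusted p = 0.124), while *Scd2* stood at -0.09 (adjusted p = 0.369), *Acss2* at 0.10 (adjusted p = 0.307) and *Me1* at 0.08 (adjusted p = 0.351). *Scd1* passed the adjusted threshold with limma-voom (adjusted p = 0.0228), in edgeR without *Tet2*-KO replicate 5 (0.025) and without that mouse and WT replicate 2 (0.0319). In the branch that turns mevalonate products into ubiquinone and dolichol, 0 of 6 genes had an unadjusted p below 0.05, and values ran from 0.02 to 0.09, with *Pdss1* at the top.

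Genes of cholesterol export, storage and breakdown gave other values than the synthesis genes. Of 12, 10 had an unadjusted p below 0.05 and were lower in *Tet2*-KO mice and 1 was higher, with a median log2 fold change of -0.58. Over all genes tested, 12.2% were lower and 10.8% higher at that p. EdgeR called 0 of the 12 past the adjusted threshold, DESeq2 4 and limma-voom 9. Of all genes they tested, DESeq2 called 4.25% and limma-voom 9.18%. *Nr1h3*, the gene of the oxysterol receptor LXR alpha, averaged 6.53 CPM in WT and 4.15 CPM in *Tet2*-KO mice (-0.66 ± 0.17, adjusted p = 0.110). *Abcg1*, a cholesterol exporter, averaged 211 and 145 CPM (-0.55 ± 0.18, adjusted p = 0.131). *Soat1*, which esterifies cholesterol for storage, averaged 129 and 93.4 CPM (-0.46 ± 0.15, adjusted p = 0.128). *Npc1*, which moves cholesterol out of lysosomes, averaged 176 and 148 CPM (-0.26 ± 0.09, adjusted p = 0.128).

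*Cyp46a1*, the neuronal hydroxylase by which cholesterol leaves the brain, was the one of the 12 with a positive value (115.97 and 138 CPM, 0.25 ± 0.09, adjusted p = 0.1496). Without *Tet2*-KO replicate 5, edgeR called 9 of the 12 lower and 1 higher, and without that mouse and WT replicate 2 it called 5 lower and 1 higher. Over all genes tested it called 2257 of 20525 and 1554 of 20464 in these 2 fits, against 5 of 20290 with all 12 mice. In the same fits it called 0 of the 8 synthesis genes. Without WT replicate 2 alone, 7 of the 12 were lower and 1 higher at an unadjusted edgeR p below 0.05. Their median log2 fold change was then -0.47. Across mice, the mean of the 12 genes correlated with that of the 8 synthesis genes at r = -0.79 within groups, beside the marker lists above. The difference between the 2 gene lists was not itself tested.

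**Figure D5:**
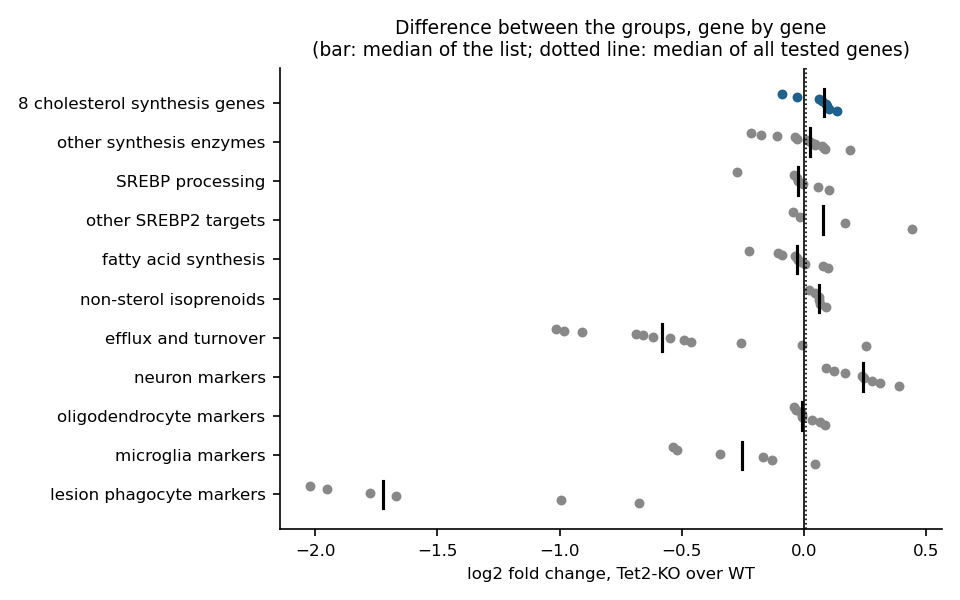
Log2 fold change (*Tet2*-KO over WT) of every gene of 11 lists, 1 point per gene, with a bar at the median of each list. The 8 synthesis genes lie between -0.09 and 0.14 around a median of 0.08, while the efflux and turnover genes reach from -1.02 to 0.25.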

How the data were processed

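RNA-sequencing libraries were made from brain after ribosomal RNA depletion and sequenced as paired reads. Per the labels' processing notes, the authors used Trimmomatic 0.36, STAR 2.5.2b and featureCounts (Subread 1.5.2) with mm10, and deposited raw read counts per gene for each mouse. The strand setting is not given in the sources used here. Of 49315 Ensembl identifiers, 48970 were matched to a symbol in GENCODE M21 (GRCm38, the same build as mm10), which also gave coordinates and exon lengths. Promoters came from RefSeq.

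From the counts, CPM, log2 fold changes and tests were computed in R 4.3.3. Genes kept by filterByExpr were scaled with TMM and tested with the robust quasi-likelihood test of edgeR 4.0.16 over all 12 mice with no covariates, with Benjamini-Hochberg adjustment over all 20290 genes and a threshold of 0.05. A prior count of 2 entered log2 CPM, and 0.1 CPM was added before the permutation tests, which ran over 924 arrangements. Alternatives were DESeq2 1.42.0 (on all genes), voom of limma 3.58.1 with quality weights, scaling by upper quartile or by the size factors of DESeq2, other count filters, a replicate block and leaving out libraries. The scripts were tested on simulated data. The genes, the other lists and the tests were chosen with earlier results of these data known. The text names the 8 genes, for each pathway list the 4 genes with the smallest p and a few fixed genes, the highest and lowest gene of a marker list where given, and the 10 genes most like the 8. *Ctsb* was named for its overlap with *Fdft1*, and the phagocyte and neuron markers to spell out their lists. *Slc1a2*, *Flt1* and *Opalin* were named for correlations unlike those of their lists. The labels do not tie libraries to separate litters or cages, so p-values measure the spread between these mice. *Spring1* had no tested gene of that symbol. Values of some genes of the lists are not reported here, although the lists' counts and medians include them.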

Additional observations from a re-analysis of the deposited data

Results flagged for a closer look

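In a group of 6, the highest or lowest mouse was marked where its gap to the nearest other mouse, as a share of the group's range, exceeded Dixon's 95% critical value. This was applied to 72 sets of 6 mice, those of the 8 genes and the pathway genes picked by the naming rule in each group, and marked 6, where chance marks about 1 in 20. Among the 8 genes the mark fell on *Lss* in *Tet2*-KO replicate 3, at 52.1 CPM against 33.5 to 38.7 CPM in the other 5. 4 marks fell on WT replicate 2: *Srebf1* at 174 CPM (others 113 to 127 CPM), *Soat1* at 175 CPM (others 109 to 129 CPM), *Npc1* at 209 CPM (others 162 to 176 CPM) and *Cyp46a1*, low, at 93.1 CPM (others 115 to 124 CPM). The last was *Nus1*, a subunit of the enzyme that starts dolichol synthesis, in *Tet2*-KO replicate 6, at 91.7 CPM against 75.6 to 80.6 CPM in the other 5.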

How the results depend on the processing

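Each of the 8 genes was refitted under 20 alternatives, of which leaving out both libraries that stood apart was chosen after seeing the data. None of these 160 values passed the adjusted threshold (smallest adjusted p 0.147), and 154 kept their sign. The 6 that changed sign were *Cyp51* under upper quartile scaling (0.0077), without WT replicate 4 (0.0030) or *Tet2*-KO replicate 4 (0.014), *Idi1* with limma-voom (-0.0047), *Hmgcs1* without *Tet2*-KO replicate 1 (-0.018) and *Lss* without *Tet2*-KO replicate 3 (-0.0048). With a single mouse left out, *Hmgcs1* ranged from -0.018 to 0.13, *Lss* from -0.0048 to 0.14 and *Cyp51* from -0.094 to 0.014. An unadjusted p below 0.05 was reached by 1 of the 8 with limma-voom (*Dhcr7*) and by 0 to 1 when a single mouse was left out (*Dhcr7* without *Tet2*-KO replicate 1, *Srebf2* without *Tet2*-KO replicate 4 or 5). Of the 14 other enzymes, 2 had one under upper quartile scaling, limma-voom, the replicate block and without both libraries that stood apart, 1 to 2 when a single mouse was left out, and 0 to 1 then passed the threshold (*Lbr* without *Tet2*-KO replicate 5, adjusted p = 0.0438). Over all genes, 5 passed in edgeR, 898 in DESeq2, 1863 in limma-voom, 44 without a filter, 0 with at least 10 counts in every library, 0 with the replicate block, 1554 without both libraries that stood apart and 0 to 2257 when a single mouse was left out, the highest without *Tet2*-KO replicate 5. The causes were not tested. The median of the 8 genes was 0.02 to 0.13 when a single mouse was left out, lowest without WT replicate 2, and 0.08 with the replicate block. The labels do not say that same-numbered mice are paired. Their deviations correlated at -0.29 to 0.40, 2 of 6 pairs were above 0.1, and 1 WT mouse correlated best with its own number. The study usually housed both groups together in cages of littermates. Whether same-numbered mice shared a litter or cage cannot be read from these correlations. Depth limits *Idi1* most, where counting alone gives a coefficient of variation of up to 11.5%.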
